A study of Chlamydomonas reinhardtii with 9 samples.

Results

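Transcripts of the Calvin cycle and of the Rubisco small subunit were examined in 3 strains of the unicellular green alga Chlamydomonas reinhardtii. The set was defined by 10 gene symbols, RBCS1, RBCS2, RCA1, PRK1, PGK1, SEBP1, FBP1, FBA3, TRK1 and RPE1. Of these, 9 were found among the 17609 gene models of the deposited table, and SEBP1 was not. All 9 had a mean of at least 1 FPKM (fragments per kilobase of transcript, scaled for library size) over the libraries. They were tested with the 11360 genes that met this minimum. How library size was scaled is not stated by the labels.

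The wild type here is strain B6, with an intact CEHC1 gene. The mutant is strain B6-F, which has the allele cehc1-1. Strain B6-F_resc is that mutant transformed with an intact copy of the gene, per the series design text, and is named here the rescued strain. Each strain was grown as 3 aerated cultures in TAP, a medium that contains acetate, under a cycle of 14 h light and 10 h dark, and collected 6 h after the light came on. Each genotype was a single strain, so CEHC1 and any other difference between the strains cannot be told apart. The labels do not describe the cehc1-1 lesion.

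The Calvin cycle fixes carbon dioxide in the chloroplast with energy from light. Rubisco joins carbon dioxide to ribulose bisphosphate, the reduction steps turn the product into triose phosphates, and the regeneration steps rebuild ribulose bisphosphate. The large subunit of Rubisco is encoded in the chloroplast genome, whereas the small subunit and the other enzymes of the cycle are encoded in the nucleus and their proteins imported. Chlamydomonas can also live on acetate, and cells in TAP medium do not depend on this cycle alone for carbon.

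The 9 libraries were of polyA RNA, and read totals are not stated by the labels, so no counting error could be attached to an FPKM value. CEHC1 itself (Cre01.g005900_4532) had 7.07 to 9.77 FPKM in wild-type cultures, 16.15 to 18.05 in mutant and 25.4 to 27.9 in rescued cultures. Reads of this gene model were thus present in the mutant, which does not show whether an intact transcript was made. The FPKM of all genes summed to 970073 to 1108532 in wild-type libraries, 592929 to 645234 in mutant and 888153 to 1002223 in rescued ones. Because these totals differed, the values of the 9 genes are given as deposited and after rescaling. Scaling factors from median ratios over all genes above 0 in every library, a setting chosen after seeing the data, were 0.996 to 1.03. The deposited values were thus close to level for the median of those genes. The rescaling below used genes of at least 1 FPKM. Its factors were 1.0428 to 1.0695 in wild-type libraries, 0.9498 to 0.9671 in mutant and 1.0144 to 1.0215 in rescued ones. For these genes the deposited values were not level between wild type and mutant. Differences are on the log2(FPKM + 1) scale with the standard error (SE), and adjusted p-values are from limma with the Benjamini-Hochberg method over all 11360 genes. A gene passed at an adjusted p under 0.05, and was called where the difference was also at least 1.

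In the mutant, 8 of the 9 genes were lower than in the wild type and FBP1 was the exception. The 8 genes stood at 42.4% to 62.9% of the wild-type mean, and in the rescued strain they stood at 98.2% to 120% of it. All 8 passed as lower, beside 40.5% of all genes tested, and 0 of the 9 passed as higher (limma; 0 at an unadjusted p under 0.05), beside 25.8% of all genes. Only RPE1 was called lower, beside 4.80% of all genes, and 0 were called higher, beside 4.60%. The median difference of the 9 genes was -0.77, beside -0.13 for all genes tested. For genes above 1000 FPKM it was -0.75, and for those of 100 to 1000 FPKM -0.73. In the same 8 genes every mutant library lay below every wild-type library, which was also so for 43.5% of all genes tested, while the reverse order held for 28.0% of all genes and 0 of the 9. A large part of the transcriptome was thus lower too, above all at the levels of these 9 genes. Above 1000 FPKM, 99.4% of genes passed as lower and 30.7% were called lower. From 100 to 1000 FPKM, 88.1% passed as lower and 26% were called lower.

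**Figure D1:**
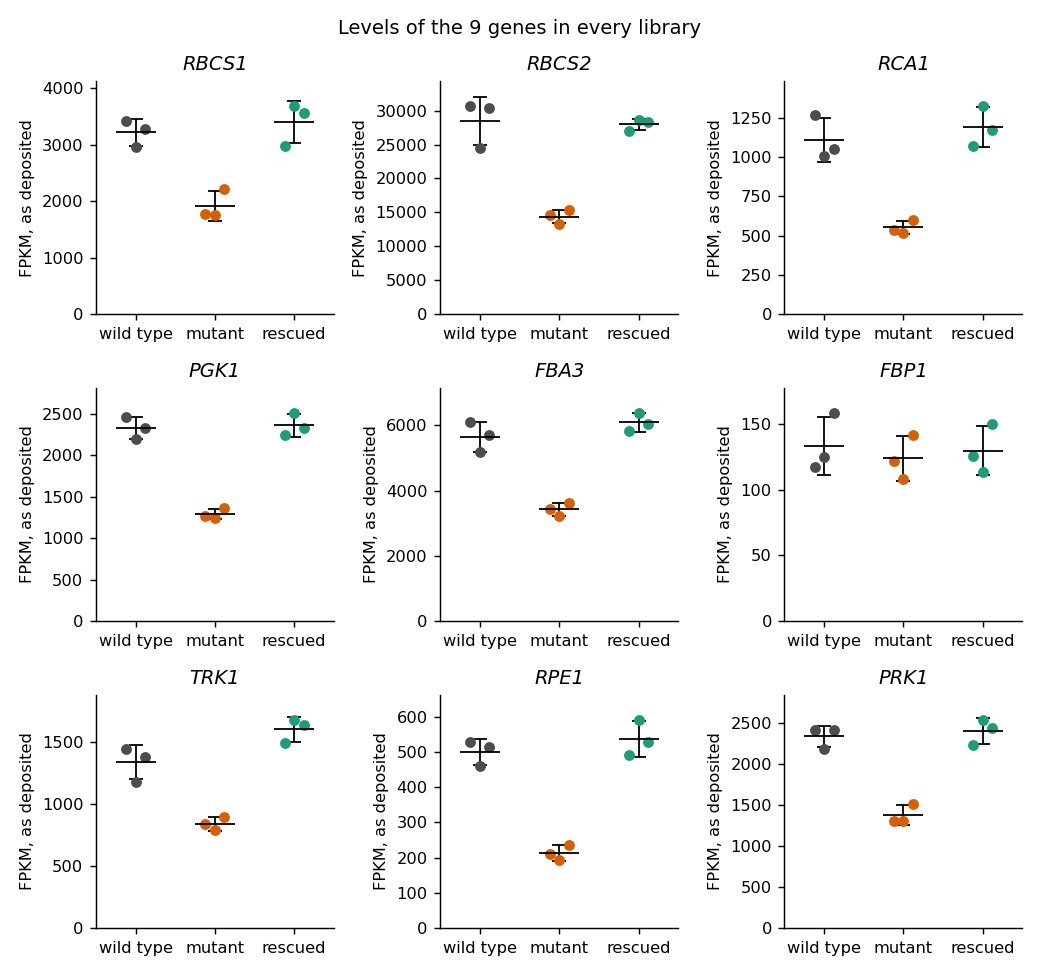
FPKM as deposited (vertical axes, each from 0) of each of the 9 genes in every library of the 3 strains; points are libraries, and bars are the mean and SD of 3. The mutant points lie below all others in 8 panels, and the strains overlap for FBP1.

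The small subunit of Rubisco is encoded by RBCS1 (Cre02.g120100_4532) and RBCS2 (Cre02.g120150_4532), which in the reference gene table lie next to each other with 0 annotated genes between them. RBCS2 stood at 30672, 24436 and 30321 FPKM in wild-type replicates 1, 2 and 3. Mutant replicates held 14591, 13309 and 15289 FPKM, and rescued replicates 26966, 28550 and 28342. The mutant libraries were all lower than the others, and the wild-type and rescued libraries overlapped. Mutant minus wild type gave -0.98 (SE 0.11, adjusted p 2.9e-05), and rescued minus mutant gave 0.96 (SE 0.11, adjusted p 3.9e-05). RBCS2 was the second most abundant transcript in the mean of each strain.

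RBCS1 stood at 3425, 2959 and 3282 FPKM in wild-type replicates, 1770, 1754 and 2214 in mutant replicates and 2976, 3683 and 3552 in rescued replicates. Every mutant library was again below all others. The difference was -0.76 (SE 0.12, adjusted p 0.00025) for the mutant against the wild type and 0.83 (SE 0.12, adjusted p 0.00018) between rescued strain and mutant. Between rescued strain and wild type neither gene passed, with differences of 0.08 (SE 0.12, adjusted p 0.638) for RBCS1 and -0.02 (SE 0.11, adjusted p 0.902) for RBCS2.

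The ratio of RBCS2 to RBCS1 does not depend on any scaling between libraries. It was 8.96, 8.26 and 9.24 in wild-type cultures, 8.25, 7.59 and 6.91 in mutant and 9.06, 7.75 and 7.98 in rescued ones. All 3 mutant ratios were lower than the wild-type ratios, by a narrow margin, whereas the rescued ratios spanned both. The means were 8.82 ± 0.504, 7.58 ± 0.669 and 8.27 ± 0.700 (SD, n = 3). The 3 comparisons gave two-sided exact permutation p-values of 0.1 for mutant against wild type, 0.4 for rescued strain against mutant and 0.3 for rescued strain against wild type. With 3 libraries against 3 the smallest p this test can give is 0.1. Both genes code for closely related proteins, and how reads shared between them were assigned is not stated in the labels, so the split between them is uncertain.

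RCA1 (Cre04.g229300_4532) encodes Rubisco activase, which frees Rubisco of bound sugar phosphates. RCA1 stood at 1266, 1007 and 1048 FPKM in wild-type replicates, 538, 519 and 600 in mutant replicates and 1073, 1325 and 1175 in rescued replicates. The mutant mean was 49.9% of the wild-type mean. The difference was -0.996 (SE 0.11, adjusted p 2.9e-05), just short of the minimum for a call, and 1.10 (SE 0.11, adjusted p 1.6e-05) for rescued strain against mutant, which was called. RCA2, listed under a related symbol, was at 16.4 ± 1.58 FPKM (wild type) and 13.0 ± 0.317 (mutant), which differed by -0.31 (SE 0.09, adjusted p 0.015). After rescaling by median ratios RCA2 no longer passed (adjusted p 0.141).

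PGK1 (Cre11.g467770_4532) encodes phosphoglycerate kinase, the enzyme of the first reduction step. PGK1 stood at 2461, 2199 and 2321 FPKM in wild-type replicates, 1268, 1238 and 1357 in mutant replicates and 2241, 2510 and 2323 in rescued replicates. Its difference of mutant from wild type was -0.85 (SE 0.08, adjusted p 1.1e-05), and of rescued strain from mutant 0.87 (SE 0.08, adjusted p 8.1e-06). The wild-type and rescued means, 2327 ± 131 and 2358 ± 138 FPKM, differed by less than their spread.

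FBA3 (Cre05.g234550_4532), an aldolase that joins triose phosphates, was the most abundant of the genes other than RBCS2. FBA3 stood at 6091, 5169 and 5693 FPKM in wild-type replicates, 3421, 3219 and 3633 in mutant replicates and 5827, 6381 and 6047 in rescued replicates. Mutant minus wild type came to -0.72 (SE 0.09, adjusted p 5.6e-05), and rescued minus mutant to 0.83 (SE 0.09, adjusted p 2.6e-05).

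FBP1 (Cre07.g338451_4532) carries the symbol of fructose bisphosphatase. FBP1 stood at 117, 125 and 158 FPKM in wild-type replicates, 121, 108 and 141 in mutant replicates and 126, 113 and 150 in rescued replicates. The 3 strains overlapped fully. The difference of mutant from wild type was -0.10 (SE 0.14, adjusted p 0.533), and of rescued strain from mutant 0.07 (SE 0.14, adjusted p 0.709). A second gene of this name, FBP2 (Cre12.g510650_4532), had 706, 613 and 683 FPKM in wild-type cultures, 396, 394 and 444 in mutant and 666, 739 and 722 in rescued cultures. FBP2 fell by 0.70 in the mutant (SE 0.08, adjusted p 4.5e-05) on the deposited scale, and stood at 0.060 with equal totals. The deposited table does not say which of the products works in the chloroplast.

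The ratio of FBP1 to FBP2 was 0.166, 0.203 and 0.232 in wild-type cultures, 0.306, 0.274 and 0.319 in mutant and 0.188, 0.154 and 0.207 in rescued ones. The mutant ratios were all above those of the other strains, with a two-sided exact permutation p of 0.1 in both comparisons. This ratio, and those of RPE1 to RPE2 and RCA1 to RCA2, were chosen after the values were seen. Over the 27 permutation tests made on 9 such ratios and shares, the adjusted p-values were 0.15 to 0.8. With 3 libraries against 3 this test gives no p below 0.1, so no ratio or share could have passed at 0.05.

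TRK1 (Cre02.g080200_4532) encodes transketolase, which moves carbon units between sugar phosphates in the regeneration steps. TRK1 stood at 1447, 1182 and 1381 FPKM in wild-type replicates, 838, 788 and 897 in mutant replicates and 1492, 1682 and 1637 in rescued replicates. The mutant fell short of the wild type, at -0.66 (SE 0.09, adjusted p 0.00014), and the rescued strain was above the mutant by 0.93 (SE 0.09, adjusted p 1.8e-05). TRK1 was the only one of the 9 genes that passed between rescued strain and wild type, with a difference of 0.27 (SE 0.09, adjusted p 0.046), beside 18.5% of all genes that passed as higher and 21.8% as lower. That result was lost without wild-type replicate 2 or 3, without rescued replicate 2 or 3, without any 1 of the 3 mutant replicates, when the 2 strains were fitted alone (adjusted p 0.086), with no minimum FPKM (adjusted p 0.060) and with median ratios over all genes above 0 (adjusted p 0.059). It was the only gene of the 9 in which every rescued library lay above every wild-type library, which held for 22.2% of all genes tested, while the reverse held for 26.3% and for 0 of the 9.

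RPE1 (Cre12.g511900_4532) encodes ribulose phosphate epimerase, another enzyme of regeneration, and had the largest fall of the 9. RPE1 stood at 529, 460 and 516 FPKM in wild-type replicates, 209, 192 and 236 in mutant replicates and 491, 593 and 528 in rescued replicates. The mutant libraries were far below all others, which overlapped. The differences were -1.24 (SE 0.10, adjusted p 5.5e-06) for mutant against wild type and 1.33 (SE 0.10, adjusted p 2.2e-06) for rescued strain against mutant. Both were called, and rescued minus wild type came to 0.10 (SE 0.10, adjusted p 0.465).

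RPE2, a second gene named for this enzyme, had a wild-type mean of 9.75 ± 0.170 FPKM, a mutant mean of 7.92 ± 0.730 and a rescued mean of 6.74 ± 0.507. Rescued minus wild type came to -0.48 for RPE2 (SE 0.08, adjusted p 0.0017). The ratio of RPE1 to RPE2 was 47.5 to 53.6 in wild-type cultures, 23.6 to 29.5 in mutant and 70.0 to 85.8 in rescued ones, with no overlap between any 2 strains and a two-sided exact permutation p of 0.1 in each of the 3 comparisons.

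PRK1 (Cre12.g554800_4532) encodes phosphoribulokinase, which makes the acceptor of carbon dioxide. PRK1 stood at 2415, 2189 and 2422 FPKM in wild-type replicates, 1308, 1311 and 1520 in mutant replicates and 2231, 2547 and 2450 in rescued replicates. The mutant fell short of the wild type, at -0.77 (SE 0.09, adjusted p 4.1e-05), and the rescued strain was above the mutant by 0.81 (SE 0.09, adjusted p 3.5e-05).

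By mean FPKM in the wild type, which is per length of transcript, the order was RBCS2, FBA3, RBCS1, PRK1, PGK1, TRK1, RCA1, RPE1 and FBP1. PRK1 (2342 ± 133) and PGK1 (2327 ± 131) were not separated there. TRK1 lay above RCA1 in each of the 9 libraries, though in the wild type their ranges over libraries overlapped. Against the mutant, 8 of the 9 genes passed as higher in the rescued strain, beside 33.1% of all genes, and 0 passed as lower (limma; 0 at an unadjusted p under 0.05), beside 25.0%. Called as higher were 2 of them, RCA1 and RPE1, beside 5.41% of all genes, and called as lower 0, beside 3.77%. Of the genes at the members' levels, 96.4% of those above 1000 FPKM and 73% of those of 100 to 1000 FPKM also passed as higher. The rescued libraries lay wholly above the mutant libraries for 8 of the 9 genes, beside 37.2% of all genes, and wholly below for 0, beside 29.3%. The median difference of the 9 genes was 0.87, beside 0.05 for all genes tested. The comparison of rescued strain with mutant uses the same mutant libraries as that of mutant with wild type, so the counts are not independent of each other. Between rescued strain and wild type 0 of the 9 genes were called (limma), beside 0.634% of all genes called higher and 1.67% called lower, while 1 gene passed and had an unadjusted p under 0.05.

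Abundant genes of many kinds were lower in the mutant on the deposited scale. Among the 7607 genes with a mean of 1 to 10 FPKM the median of mutant minus wild type was 0.04, and among the 3083 genes of 10 to 100 FPKM it was -0.42. It was -0.73 among the 504 genes of 100 to 1000 FPKM, and -0.75 among the 166 genes above 1000 FPKM. Of those 166 genes, 165 passed as lower, and the middle 80% of their differences ran from -1.18 to -0.46. RBCS1, RBCS2, PRK1, PGK1, FBA3 and TRK1 belong to this most abundant class, and the differences of all of them, -0.98 to -0.66, lay within that range. In the class of 100 to 1000 FPKM the middle 80% ran from -1.21 to -0.18, with RCA1 inside this range, RPE1 (-1.24) just below it and FBP1 (-0.10) above it. These ranges describe the libraries and are no test, and depth per strain was not known. The part of library composition in the result was not tested.

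**Figure D2:**
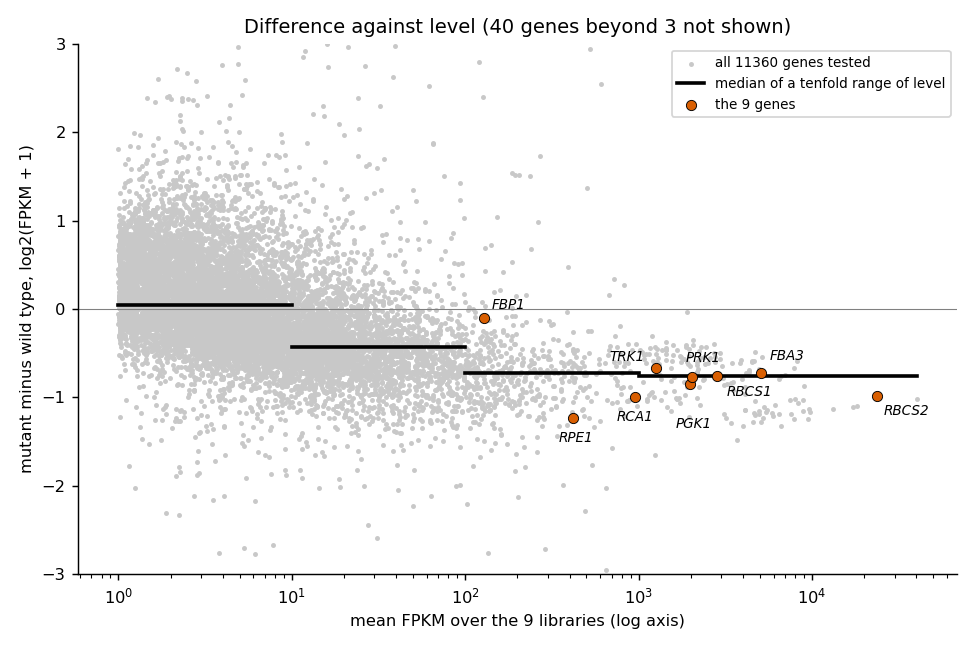
Difference of mutant from wild type on the log2(FPKM + 1) scale (vertical axis) against the mean FPKM over the 9 libraries (horizontal log axis) for the 11360 genes tested, with 40 genes beyond 3 not drawn; black lines are medians within the 4 ranges of level given above and orange points the 9 genes. The median falls from 0.04 in the lowest range to -0.75 in the highest, and most orange points lie near the line for their level.

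Rescaling by median ratios over genes of at least 1 FPKM moved the median of all genes from -0.13 to -0.01 and left the same 8 genes lower in the mutant, with a median over the 9 genes of -0.62. RBCS1 then read 3221, 2837 and 3069 in the 3 wild-type libraries, 1848, 1814 and 2331 in those of the mutant and 2933, 3618 and 3477 in the rescued ones, and limma put mutant minus wild type at -0.61 (adjusted p 0.0010) and rescued minus mutant at 0.75 (adjusted p 0.00036). RBCS2 then read 28844, 23433 and 28351 in the 3 wild-type libraries, 15236, 13762 and 16098 in those of the mutant and 26582, 28043 and 27746 in the rescued ones, and limma put mutant minus wild type at -0.83 (adjusted p 6.8e-05) and rescued minus mutant at 0.87 (adjusted p 6.1e-05). RCA1 then read 1190, 965 and 980 in the 3 wild-type libraries, 562, 537 and 632 in those of the mutant and 1057, 1301 and 1150 in the rescued ones, and limma put mutant minus wild type at -0.85 (adjusted p 7.7e-05) and rescued minus mutant at 1.02 (adjusted p 2.8e-05). For the small subunit genes and the activase the mutant libraries were thus still the lowest, by smaller differences.

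On this scale PGK1 read 2314, 2109 and 2170 in the 3 wild-type libraries, 1324, 1280 and 1429 in those of the mutant and 2209, 2465 and 2274 in the rescued ones, and limma put mutant minus wild type at -0.71 (adjusted p 3.1e-05) and rescued minus mutant at 0.78 (adjusted p 1.6e-05). FBA3 then read 5728, 4957 and 5323 in the 3 wild-type libraries, 3573, 3329 and 3825 in those of the mutant and 5744, 6268 and 5920 in the rescued ones, and limma put mutant minus wild type at -0.58 (adjusted p 0.00021) and rescued minus mutant at 0.74 (adjusted p 4.9e-05). FBP1 then read 110, 120 and 148 in the 3 wild-type libraries, 127, 112 and 149 in those of the mutant and 124, 111 and 147 in the rescued ones, and limma put mutant minus wild type at 0.04 (adjusted p 0.825) and rescued minus mutant at -0.02 (adjusted p 0.910). PGK1 and FBA3 kept mutant libraries below all others, and the strains overlapped for FBP1.

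On the same scale TRK1 read 1361, 1133 and 1292 in the 3 wild-type libraries, 875, 815 and 945 in those of the mutant and 1471, 1652 and 1602 in the rescued ones, and limma put mutant minus wild type at -0.52 (adjusted p 0.00060) and rescued minus mutant at 0.84 (adjusted p 3.0e-05). RPE1 then read 497, 441 and 482 in the 3 wild-type libraries, 219, 199 and 249 in those of the mutant and 484, 582 and 517 in the rescued ones, and limma put mutant minus wild type at -1.09 (adjusted p 1.2e-05) and rescued minus mutant at 1.25 (adjusted p 3.5e-06). PRK1 then read 2271, 2099 and 2265 in the 3 wild-type libraries, 1365, 1356 and 1600 in those of the mutant and 2200, 2502 and 2398 in the rescued ones, and limma put mutant minus wild type at -0.62 (adjusted p 0.00015) and rescued minus mutant at 0.72 (adjusted p 7.1e-05). RPE1 remained the only gene of the 9 called in mutant against wild type on this scale, and the same 8 genes passed as higher in the rescued strain. Of all 11360 genes, 3621 passed as lower in the mutant on this scale and 337 were called lower. In rescued strain against mutant 3191 of all genes passed as higher.

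Scaling every library to the same total of FPKM gave another picture, since the mutant totals were the lowest. It moved the median of all genes to 0.48, and the split of called genes in the mutant from 523 higher and 545 lower to 2041 higher and 76 lower. On this scale RPE1 (-0.48, adjusted p 5.8e-05), RCA1 (-0.24, adjusted p 0.020) and RBCS2 (-0.22, adjusted p 0.0025) were below wild type in the mutant, all from limma. FBP1 was higher (0.65, adjusted p 0.00054). The other 5 genes had differences from -0.10 to 0.09 and did not pass. Of all genes 7944 passed as higher and 683 as lower on this scale. Between rescued strain and mutant the 8 genes still passed as higher, from 0.17 for PRK1 to 0.70 for RPE1, while 965 of all 11360 genes passed as higher and 7838 as lower (median -0.47), and FBP1 was lower (-0.57, adjusted p 0.0013). The fall of 8 genes in the mutant thus depended on the scale for RBCS1, PRK1, PGK1, FBA3 and TRK1. For RBCS2, RCA1 and RPE1 it passed on the deposited scale and under both of these rescalings. Under quantile normalization, also fitted with limma, RPE1 (-0.57, adjusted p 0.00011), RCA1 (-0.35, adjusted p 0.0059), PGK1 (-0.19, adjusted p 0.016) and PRK1 (-0.11, adjusted p 0.034) passed as lower in the mutant. FBP1 (0.52, adjusted p 0.0043) and FBA3 (0.26, adjusted p 0.0014) passed as higher there, and RBCS2 was at 0.00. Its rank was the second in the mean of each strain, and that method gives equal ranks equal values.

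**Figure D3:**
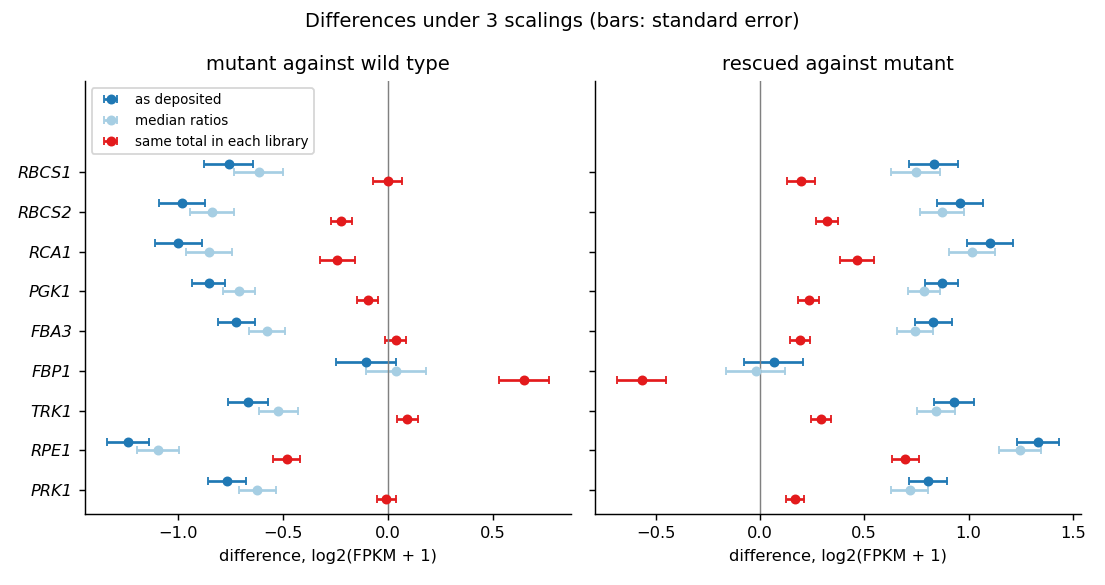
Differences on the log2(FPKM + 1) scale (horizontal axes) with their standard errors for the 9 genes, on the deposited scale and under 2 rescalings, for mutant against wild type (left) and rescued strain against mutant (right). With equal totals RBCS2, RCA1 and RPE1 remain lower in the mutant, FBP1 is higher, and the other 5 lie between -0.10 and 0.09.

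Taken as a share of all FPKM, which no scaling can change, the 9 genes held 4.59%, 4.10% and 4.25% in the wild-type libraries. They held 3.92%, 3.79% and 4.01% in mutant and 4.89%, 4.76% and 4.61% in rescued cultures. The mutant shares were the lowest and the rescued shares the highest, with no overlap between strains, and each of the 3 comparisons had a two-sided exact permutation p of 0.1. Outside the 100 highest other genes the 9 genes held 9.87% to 11.2% in wild-type, 7.83% to 8.51% in mutant and 11.1% to 11.5% in rescued libraries, so that rescued and wild type overlapped (two-sided exact permutation p 0.2). As shares of all FPKM the means were 4.31% ± 0.253, 3.91% ± 0.115 and 4.75% ± 0.140 (SD, n = 3). RBCS2 alone held 2.72% ± 0.195 in wild-type cultures, 2.33% ± 0.0744 in mutant and 2.91% ± 0.110 in rescued ones. Within the FPKM of the 9 genes, RBCS2 held 63.1% ± 1.42, 59.7% ± 0.847 and 61.2% ± 0.930 in the same order.

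**Figure D4:**
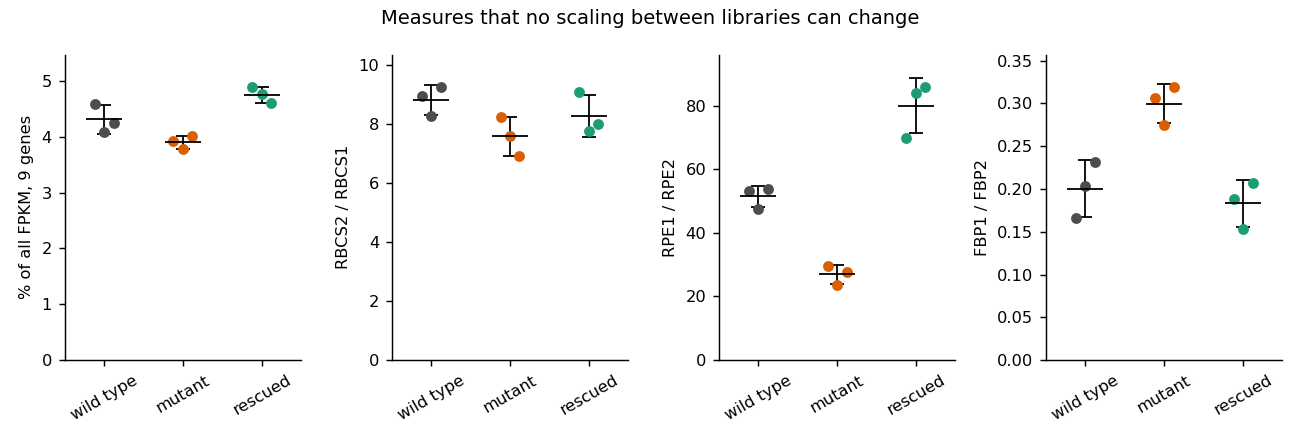
Share of all FPKM held by the 9 genes, in percent, and the FPKM ratios of RBCS2 to RBCS1, RPE1 to RPE2 and FBP1 to FBP2 (vertical axes from 0) in every library; points are libraries, and bars are the mean and SD of 3. The mutant shares of 3.79% to 4.01% lie below the wild-type shares of 4.10% to 4.59%, and the rescued ratios of RPE1 to RPE2 lie above all others.

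Each gene was also set against the geometric mean of the other 8, a measure that no scaling changes either. Relative to the others, RPE1 was below wild type in the mutant by -0.51 on the log2 scale, from -2.14 to -2.13 in the wild type and from -2.68 to -2.62 in the mutant. FBP1 was higher by 0.77 and TRK1 by 0.14, while RBCS2 was lower by -0.22 and RCA1 by -0.24, and in each of these the mutant and wild-type libraries did not overlap. RBCS1 (0.03), PRK1 (0.02), PGK1 (-0.07) and FBA3 (0.07) differed less, and their libraries overlapped. In the rescued strain RPE1 was at -2.17 to -2.01, overlapping the wild type, and TRK1 was above the wild type by 0.22 with no overlap. FBP1 is itself 1 of the 8 genes in the mean for each of the other members.

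The rest of the cycle was described with a second list of 13 symbols, of which 11 were found and tested. All 11 passed as lower in the mutant, beside 40.5% of all genes, with a median of -0.71. Of them 1, RPI1, was called lower, beside 4.80% of all genes. After median-ratio rescaling 9 passed as lower and 0 were called, beside 3621 and 337 of all 11360 genes. On the deposited scale 0 were called without wild-type replicate 1 or without mutant replicate 2, against 2 without wild-type replicate 2 or mutant replicate 3. RPI1, a ribose phosphate isomerase, was at 415 ± 31.1 FPKM in wild-type cultures, 205 ± 10.9 in mutant and 475 ± 31.6 in rescued cultures, and mutant minus wild type came to -1.01 (SE 0.08, adjusted p 5.1e-06). GAPA1, the chloroplast glyceraldehyde phosphate dehydrogenase, was at 7717, 4609 and 8511 FPKM in the same order, with a difference of -0.74 (SE 0.10, adjusted p 0.00013). CP12, a small protein that binds this dehydrogenase and phosphoribulokinase in darkness, went from 4315 ± 238 to 2278 ± 71.1 FPKM (difference -0.92, SE 0.08, adjusted p 9.9e-06). TPIC1, a triose phosphate isomerase, went from 187 ± 17.0 to 108 ± 4.20 FPKM (difference -0.78, SE 0.08, adjusted p 1.8e-05). With equal totals, 2 of the 11 passed as higher and 3 as lower in the mutant, beside 7944 and 683 of all 11360 genes. GAPA1, CP12 and TPIC1 were named after their values were seen.

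Against the mutant, 10 of the 11 passed as higher in the rescued strain, beside 33.1% of all genes, with a median of 0.78, and RPE2 did not. FBA2, another aldolase gene, was at 30.2 ± 2.07 FPKM in wild-type cultures, 14.97 ± 1.46 in mutant and 47.0 ± 4.30 in rescued cultures. It was higher in the rescued strain than in the wild type by 0.62 (SE 0.09, adjusted p 0.00088), and was chosen after its values were seen. Over the list, 1 gene was higher and 1, RPE2, was lower than in the wild type, beside 18.5% and 21.8% of all genes.

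SBP1 (Cre03.g185550_4532) is a symbol commonly used for sedoheptulose bisphosphatase, the enzyme that SEBP1 would stand for, but the deposited table does not link the names. SBP1 stood at 2816, 2317 and 2769 FPKM in wild-type replicates, 1479, 1370 and 1684 in mutant replicates and 2710, 3000 and 3109 in rescued replicates. The difference of mutant from wild type was -0.80 (SE 0.11, adjusted p 9.5e-05), and of rescued strain from mutant 0.96 (SE 0.11, adjusted p 3.5e-05). With equal totals the means were 2203 ± 124 in wild-type, 2137 ± 134 in mutant and 2672 ± 38.3 in rescued libraries. Wild-type and mutant libraries overlapped there, so the fall of SBP1 in the mutant depended on the scale. SBP1 was in no list and is not counted among the 9.

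A list of 20 genes for Rubisco assembly and modification and for the pyrenoid, the body in which algal Rubisco is packed, had 15 found and 13 tested. Of these 8 passed as lower in the mutant, beside 40.5% of all genes, with a median of -0.72. When rescued and mutant were compared 11 passed as higher, beside 33.1% of all genes (median 0.91). In the rescued strain 6 of the 13 passed as higher than in the wild type, beside 18.5% of all genes, with a median of 0.36. Without rescued replicate 2 that median was 0.20 and 4 passed, and 4 passed also without wild-type replicate 2 or rescued replicate 3. EPYC1, the linker protein that gathers Rubisco in the pyrenoid, had a wild-type mean of 2245 ± 301 FPKM, a mutant mean of 1360 ± 78.5 and a rescued mean of 2873 ± 304, and was named after its values were seen. Its differences were -0.72 (SE 0.11, adjusted p 0.00026) for mutant against wild type and 0.36 (SE 0.11, adjusted p 0.028) for rescued strain against wild type.

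Other metabolic lists served for comparison by count and median, with at most 4 called genes of the largest fall named for each. In the mutant 40.5% of all genes tested passed as lower, 25.8% passed as higher and 4.80% were called lower. Of 21 antenna genes, which encode the light-harvesting proteins, all 21 passed as lower in the mutant and 19 were called, with a median of -1.16. The called antenna genes numbered 12 after median-ratio rescaling, beside 337 of all genes called lower. They numbered 0 with equal totals (76 of all genes) or under quantile normalization (237 of all genes). The largest falls were those of LHCA4 (-1.32), LHCA8 (-1.28), LHCA5 (-1.27) and LHCBM9 (-1.26). Photorespiration had 11 genes tested, 5 lower and 3 higher, with a median of -0.27 (-0.18 without wild-type replicate 1). Glycolysis and sugar phosphate enzymes outside the cycle had 13 tested, 8 lower and 1 higher, with a median of -0.42, and PYK1, a pyruvate kinase, was the only one called (-1.15, SE 0.09, adjusted p 3.6e-06). Acetate use and the glyoxylate cycle had 14 tested, 11 lower and 2 higher, with a median of -0.49. Between rescued strain and mutant the medians were 1.05 for the antenna, 0.20 for photorespiration (0.04 without rescued replicate 1), 0.46 for glycolysis and 0.34 for acetate use. With equal totals 20 antenna genes were still lower in the mutant, beside 683 of all 11360 genes that passed as lower and 7944 as higher. The balance turned for photorespiration (7 higher), glycolysis (9 higher, 1 lower), acetate use (9 higher) and Rubisco assembly (3 higher, 1 lower). The balance of all genes tested turned the same way on that scale. Differences between the lists were not tested.

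**Figure D5:**
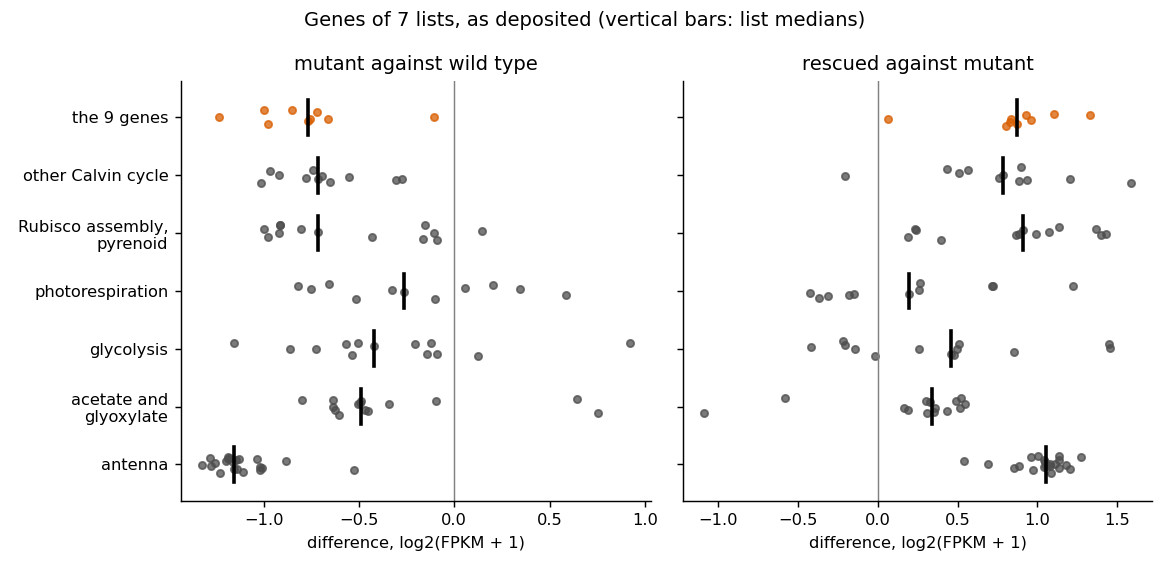
Differences on the log2(FPKM + 1) scale (horizontal axes) of the genes tested in 7 lists, as deposited, for mutant against wild type (left) and rescued strain against mutant (right); each point is a gene and the bars are medians. The median of the 9 genes, -0.77 on the left, lies between those of photorespiration (-0.27) and of the antenna (-1.16).

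The genes with a symbol whose pattern over the 9 libraries was most like the mean of the 9 genes were PETO1, CPLD8, SBP1, FBP2 and NAB1, with Pearson's r of 0.997, 0.996, 0.995, 0.994 and 0.994. PETO1 is named for a phosphoprotein of the thylakoid membrane, and NAB1 for an RNA-binding protein that represses antenna translation. PETO1 went from 889 ± 86.4 FPKM (wild type) to 427 ± 45.7 (mutant) and 941 ± 99.4 (rescued). NAB1 went from 798 ± 65.3 to 390 ± 30.5 and 796 ± 51.1, and CPLD8 from 186 ± 21.9 to 92.5 ± 8.90 and 210 ± 21.8. Of the other 11351 genes tested 763 had an r of at least 0.95. All of these values come from the same 9 libraries on the deposited scale.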

How the data were processed

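The authors deposited FPKM per library, and 1 FPKM value per strain, for 17609 gene models. The submitters' processing notes name STAR 2.7.10b and Cuffdiff 2.0.2, with no settings. The strain values lay within 0.478% of the means of the library values for the 9 genes, and results are from the libraries. Groups and replicate numbers came from the sample titles. Per the labels, libraries were polyA-selected, with paired reads of 125 bp.

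The 11360 genes that averaged 1 FPKM or more were taken to log2(FPKM + 1). A model of strain means over all 9 libraries was fitted (limma 3.58.1, R 4.3.3, eBayes with a trend on level). The fit was tested on simulated data with independent noise and as many raised as lowered genes. No difference in library totals or by level was put into those data, so that case was not tested. FPKM are not counts, so no count model was used. Single ratios and shares were compared with two-sided exact permutation tests. P-values measure the spread between cultures of 1 strain. Whether equal replicate numbers pair the libraries was not settled, and the main fit had no replicate block.

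The 10 symbols and the lists were chosen with earlier results of these data known. Named were the 10 symbols, genes of each other list called in mutant against wild type (at most 4 largest rises and falls), and the 5 symbols most like the mean z-score of the 9 genes. Others are marked as chosen after their values were seen. Neighbouring genes came from the RefSeq gene table, in which all 9 were matched by locus tag. Protein and promoter sequences were not used here. Plots used matplotlib 3.10.9 and Python 3.11.15.

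Alternatives were other pseudocounts (0.1, 5), minimum levels (none, 5 FPKM), 4 rescalings, moderation, groups and blocks in the fit, and leaving out each library.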

Additional observations from a re-analysis of the deposited data

How the results depend on the processing

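The counts of genes passed in mutant against wild type and in rescued strain against mutant were 8 of 9 when any 1 library was left out. With equal totals, 4 of the 9 genes passed in mutant against wild type (1 higher and 3 lower, beside 7944 and 683 of all 11360 genes), and 0 were called there and in rescued strain against mutant, as was so under quantile normalization. Leaving out 1 library moved the genes called in mutant against wild type between 1 and 3. Without wild-type replicate 2 there were 3, all lower, beside 609 lower and 595 higher of all 11360 genes. Without mutant replicate 3 there were 3, all lower, beside 575 and 535. Without wild-type replicate 3 there were 2, both lower, beside 503 and 477. With every library kept there was 1, lower, beside 545 and 523. In rescued strain against wild type, the 1 gene passed became 5 with equal totals (all genes 2471 higher, 1379 lower) and 5 under quantile normalization (2187 and 1916). It became 0 with no minimum FPKM, with only the 2 groups, and with median ratios over all genes above 0, a setting chosen after seeing the data, and 0 to 1 without 1 library.

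Differences of single genes turned in sign in mutant against wild type with equal totals for FBP1 (0.65), FBA3 (0.036), TRK1 (0.092), FBP2 (0.060), GAPA1 (0.015), RPE2 (0.41), EPYC1 (0.041) and RCA2 (0.40). Under quantile normalization those of FBP1 (0.52), FBA3 (0.26) and GAPA1 (0.25) did. In rescued strain against mutant they turned with equal totals for FBP1 (-0.57), TPIC1 (-0.070) and RCA2 (-0.16), and under quantile normalization for FBP1 (-0.46). A further 19 values of the 9 genes, from -0.04 to 0.10, changed sign without passing in either fit.

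The balance of list counts also turned. With equal totals, mutant against wild type gave 4 genes passed for Rubisco assembly (3 higher) and 9 for acetate use (all higher, 2 called). It gave 10 for glycolysis (9 higher, 1 called higher) and 7 for photorespiration (all higher, 2 called). Of all 11360 genes, 7944 passed as higher and 683 as lower there, and 2041 were called higher. Quantile normalization gave 5 for acetate use, 9 (1 called higher) for glycolysis and 7 for photorespiration. All genes then gave 2952 higher and 3772 lower, with 488 called higher. In rescued strain against mutant, equal totals gave 11 (all lower, 2 called), 11 (8 lower, 1 called) and 9 (8 lower, 1 called) for these 3 lists. Beside them 7838 of all genes passed as lower and 965 as higher, and 1553 were called lower. Quantile normalization gave 8 for acetate use and 10 for photorespiration, beside 3520 of all genes higher and 3145 lower. In rescued strain against wild type, photorespiration gave 5 with equal totals (all genes 2471 higher, 1379 lower). The antenna gave 4 under quantile normalization (all genes 2187 higher, 1916 lower). Acetate use gave 1 to 5 without 1 library, beside 2099 higher and 2478 lower of all genes with every library kept. The causes were not tested beyond the change of scale itself.

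With the 100 highest other genes left out of the total, the share held by the 9 genes differed by -2.31 percentage points between mutant and wild type, 3.13 between rescued strain and mutant, and 0.822 between rescued strain and wild type. With all genes the values were -0.407, 0.848 and 0.441. The mean shares of wild type and mutant were 10.5% and 8.19% there, and 4.31% and 3.91% with all genes. The replicate block left 8, 8 and 1 genes passed. Same-numbered libraries had correlations of their deviations from -0.13 to 0.164, over 0.1 in 3 of 9 pairs, and 6 of 9 libraries correlated best with their own number. Depth was unknown, which limits what low genes such as RPE2 can show.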
